A study of Mus musculus with 24 samples.

Results

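The genes described here are members of the Ms4a family other than Ms4a1, in mouse macrophages and B cells exposed to Kdo2 lipid A (KLA), the highly specific agonist of Toll-like receptor 4. The list held 9 names, Ms4a4b, Ms4a4c, Ms4a4d, Ms4a6b, Ms4a6c, Ms4a6d, Ms4a7, Ms4a8a and Ms4a11, and every probe that carried one of these names on the array was taken. This gave 16 probes of 8 genes among the 41174 probes and 27845 gene names on the array. No probe was named Ms4a11, which RefSeq lists as a synonym of Ms4a6d, and 1 of the Ms4a6d probes was designed on an Ms4a11 mRNA. The family was selected on a measured value, the 12 h change in elicited peritoneal macrophages, because Ms4a4c had the largest rise there of all genes. The 12 h values of those cells are therefore given as a description without a test.

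RNA was compared in 3 cell types of C57BL/6 mice, whose age is not given in the sources used here. Elicited peritoneal macrophages (EPM) were lavaged 3 days after thioglycollate, bone marrow-derived macrophages (BMDM) were grown in M-CSF from L-cell conditioned medium, and resting B cells came from spleen by depletion of cells with CD43 or CD11b. EPM and B cells were left untreated, given KLA for 1 h, or given DMSO or KLA for 12 h, whereas BMDM had DMSO and KLA at both 1 h and 12 h, so that the 1 h control was a vehicle control in BMDM only. All groups shared the wild-type strain, and each of the 12 groups had 2 biological replicates, 1 in the Cy5 and 1 in the Cy3 channel of a single Agilent array. The 4 arrays of a cell type lay on 1 slide. Array and condition therefore cannot be told apart, nor can slide and cell type. Whether a replicate came from 1 or several mice is not given in the sources used here.

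Ms4a genes encode small membrane proteins that cross the membrane repeatedly, with both ends in the cytoplasm. They lie in a cluster, and the best known members are Ms4a1, which encodes the B cell antigen CD20, and Ms4a2, which encodes a chain of the high-affinity IgE receptor. Ms4a4b is known from T cells, where it was described as a surface protein that modulates T cell activation. Ms4a7 is used as a macrophage marker, and Ms4a8a has been described in alternatively activated macrophages. Toll-like receptor 4 signals through the adaptors MyD88 and TRIF, and the TRIF arm induces interferon beta, which acts back on the cell and starts a later wave of transcription through STAT and IRF factors.

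The promoters of Ms4a4b and Ms4a4c resembled each other, as did those of Ms4a6b and Ms4a6c. In the RefSeq order of the cluster, Ms4a4c and Ms4a4b are next to each other, followed by Ms4a6c and Ms4a6b, then Ms4a4d and Ms4a6d. RefSeq promoters of build GRCm38.p6 were held for 7 member genes (8 entries), and the 250 bases before each gene start were compared. The following 4 windows, all on the + strand and written 5′ to 3′, are shown because these pairs had the most similar windows among the 28 pairs compared. In Ms4a4b (chr19:11443308-11443557) and Ms4a4c (chr19:11407411-11407660) the capitals mark the longest run of 20 bases that both share, and in Ms4a6b (chr19:11518309-11518558) and Ms4a6c (chr19:11469118-11469367) they mark the match to GAAANNGAA, the core of sites for interferon regulatory factors.
Ms4a4b: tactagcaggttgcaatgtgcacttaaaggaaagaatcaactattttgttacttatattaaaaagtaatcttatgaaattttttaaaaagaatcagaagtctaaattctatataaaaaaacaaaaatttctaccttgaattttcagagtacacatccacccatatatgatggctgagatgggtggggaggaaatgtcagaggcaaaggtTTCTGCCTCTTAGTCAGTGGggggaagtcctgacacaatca
Ms4a4c: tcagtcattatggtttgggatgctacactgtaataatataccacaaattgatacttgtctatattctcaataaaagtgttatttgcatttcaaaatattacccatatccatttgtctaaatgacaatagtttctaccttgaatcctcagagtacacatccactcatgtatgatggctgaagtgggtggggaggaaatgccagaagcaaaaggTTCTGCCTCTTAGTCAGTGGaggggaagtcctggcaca
Ms4a6b: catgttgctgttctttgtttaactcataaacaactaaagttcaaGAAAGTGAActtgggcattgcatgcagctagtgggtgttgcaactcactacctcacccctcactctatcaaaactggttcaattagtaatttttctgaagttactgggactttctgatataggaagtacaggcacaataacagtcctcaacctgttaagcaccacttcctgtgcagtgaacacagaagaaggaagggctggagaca
Ms4a6c: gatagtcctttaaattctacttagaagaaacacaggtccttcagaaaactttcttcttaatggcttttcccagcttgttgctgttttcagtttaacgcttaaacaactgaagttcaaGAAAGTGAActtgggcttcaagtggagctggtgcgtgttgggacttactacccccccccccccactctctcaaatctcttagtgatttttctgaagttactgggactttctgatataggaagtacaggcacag

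In a global alignment, the windows of Ms4a4b and Ms4a4c had 185 identical bases, or 74% of the window. Those of Ms4a6b and Ms4a6c had 149, or 59.6%, and shared a run of 48 bases. The other 26 pairs lay between 49.2% and 56.4%, with no shared run longer than 9 bases. The match to GAAANNGAA, searched on both strands, began 206 bases before the gene start in Ms4a6b and 133 bases before it in Ms4a6c. It was also found in both Ms4a7 promoters, which made 4 of 8 entries, against 7.13% of all 32851 windows of this length. The Ms4a7 entries belong to 1 gene and the Ms4a6b and Ms4a6c windows resemble each other, so the entries are not independent. The windows of Ms4a4b, Ms4a4c, Ms4a4d and Ms4a8a held no match. The motif AGGAAGT, an ETS site, was in the Ms4a6b and Ms4a6c windows only, against 7.69% of all windows, whereas TTCNNNGAA, a STAT site, was in none (7.02% of all), and TATAAA was in Ms4a4b only (12.4%). These matches are descriptions of the letters in these windows, and the motifs were chosen with the sequences in view.

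The cell types carried their defining markers. All 7 macrophage markers were well above background in all 8 channels of EPM and of BMDM, and all 7 B cell markers in all 8 B cell channels, while 4 of the 7 macrophage markers were also well above background in all 8 B cell channels and 2, Itgam and Mertk, in none. Probes were well above background at 57.4% to 65% of all probes per channel, and no spot was saturated. A conflict in the B cell labels bears on the comparisons of KLA with control in B cells, but not on the main comparison of untreated B cells with BMDM. In the authors' table of normalized values, the columns for KLA at 1 h and for DMSO at 12 h each matched the scanner values of the opposite one of these conditions, with r across probes of 0.974 or more, and ran against the condition they name, with r of -0.706 or less. All other columns matched the condition they name. Labels were used as the scanner files have them, and the KLA results of B cells are given also with these 2 conditions exchanged.

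Of the 16 probes, 15 had both channels of some group well above background and were tested. The remaining probe, A_52_P612499 of Ms4a4b, lay between 5.83 and 6.24 on the log2 scale and was not above background in any channel. Probe coordinates, on mm8, all lie on chromosome 19. The exon that a probe lies in was not determined, because no annotation of that build was used. Levels are normalized log2 intensities, in which the lowest signal well above background lay between 5.44 and 6.16 depending on the channel, and levels of different probes are not set against each other.

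**Figure D1:**
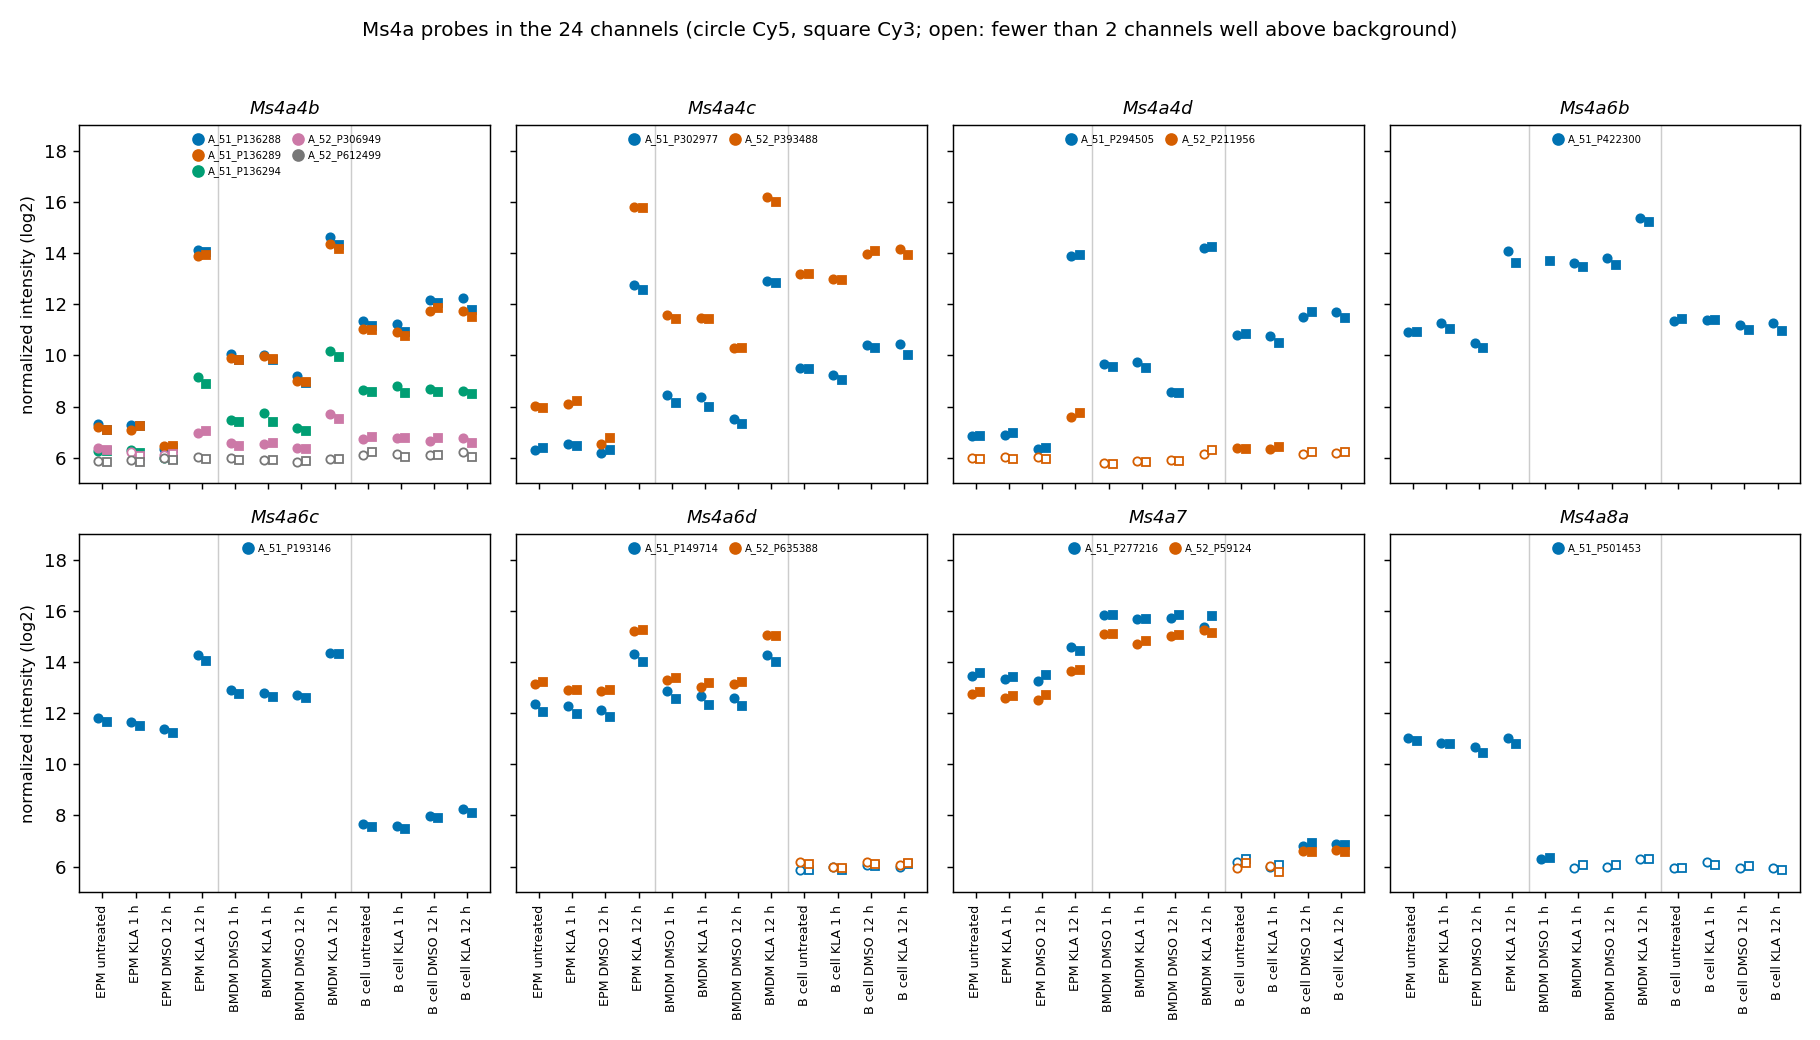
Normalized log2 intensity (y axis) of the 16 Ms4a probes in the 12 groups (x axis), 1 panel per gene and 1 colour per probe, with the Cy5 replicate as a circle and the Cy3 replicate as a square. Open symbols mark groups in which fewer than 2 channels were well above background. The brighter probes of Ms4a4b and Ms4a4d and both of Ms4a4c stand highest in both macrophage types at KLA 12 h, Ms4a7 stands highest in BMDM and Ms4a8a in EPM, and the dimmest probes of Ms4a4b and Ms4a4d stay near background in most groups.

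Ms4a4c was followed by 2 probes. Probe A_52_P393488 (NM_029499, chr19:11493309-11493368, + strand) read 8.02 and 7.94 in untreated EPM and 8.11 and 8.21 after 1 h of KLA. It read 6.55 and 6.76 in EPM kept in DMSO for 12 h and 15.80 and 15.76 after 12 h of KLA, which is a difference of 9.13 on the log2 scale, or 559-fold. The 12 h KLA channels thus stood far above all other EPM channels, and the DMSO 12 h channels stood lowest. In BMDM the same probe read 11.57 and 11.42 with DMSO and 11.47 and 11.43 with KLA at 1 h, then 10.28 and 10.27 with DMSO and 16.18 and 16.01 with KLA at 12 h. The 12 h rise in BMDM was 5.83 (standard error 0.08, adjusted p = 3.95e-20, limma), or 56.8-fold. EPM and BMDM therefore started from different control levels and came to lie at 15.78 and 16.10 after 12 h of KLA.

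Probe A_51_P302977 of Ms4a4c (designed on AB026045, without a coordinate in the files) gave smaller values in EPM. It read 6.20 and 6.29 in DMSO and 12.74 and 12.56 in KLA at 12 h, a difference of 6.40, or 84.6-fold. In BMDM it read 7.50 and 7.30 in DMSO and 12.91 and 12.84 in KLA at 12 h, a rise of 5.48 (standard error 0.14, adjusted p = 1.11e-16). The groups did not overlap in either cell type. The EPM control lay close to the background with this probe, and the normexp offset of 50 compresses folds from such levels. The EPM value at 12 h was 7.25 with an offset of 16 and 8.91 from the processed signal, against 9.73 and 10.66 for the other probe.

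Ms4a4b behaved alike with 2 of its probes. Probe A_51_P136288 (NM_021718, chr19:11524876-11526235, crossing an intron) read 7.33 and 7.09 in untreated EPM, 7.27 and 7.24 after 1 h of KLA, 6.35 and 6.37 in DMSO at 12 h, and 14.13 and 14.03 after 12 h of KLA. The EPM difference at 12 h was 7.71, or 210-fold. BMDM channels read 9.18 and 8.93 in DMSO and 14.64 and 14.31 in KLA at 12 h, a rise of 5.42 (standard error 0.14, adjusted p = 3.1e-16). Probe A_51_P136289 (chr19:11521807-11524890) gave 7.46 in EPM and 5.29 in BMDM (adjusted p = 1.73e-19). Both probes thus rose with non-overlapping replicates, and further from the control in EPM than in BMDM. Their mapped spans overlap at 1 end, so they are not independent measurements of the gene.

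The other tested probes of Ms4a4b gave smaller differences. Probe A_51_P136294 (chr19:11530184-11530243) was not above background in EPM with DMSO at 12 h and read 9.17 and 8.87 with KLA, which was at least 7.8-fold higher. For such a bound the dim group enters with the detection limit of each channel, or with the probe's measured level where that is higher. In BMDM this probe rose by 2.94 (adjusted p = 6.69e-14), from 7.17 and 7.05 to 10.16 and 9.94. Probe A_52_P306949 (chr19:11517005-11517064) read 6.98 and 7.05 in EPM with KLA at 12 h, at least 1.86-fold higher than DMSO, and rose by 1.27 in BMDM (adjusted p = 2.1e-11). The size of the change of Ms4a4b therefore depended on the probe, while its direction at 12 h was shared by the 4 probes in both macrophage types.

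The probes of Ms4a4d disagreed in size as well. Probe A_51_P294505 (NM_025658, chr19:11619895-11621871, crossing an intron) read 6.34 and 6.36 in EPM with DMSO and 13.87 and 13.92 with KLA at 12 h, a difference of 7.55, or 187-fold. The BMDM channels were at 8.56 and 8.54 with DMSO and 14.20 and 14.22 with KLA, a rise of 5.66 (standard error 0.09, adjusted p = 1.97e-19). Probe A_52_P211956 (chr19:11621942-11623266) read 7.60 and 7.76 in EPM with KLA at 12 h, at least 3.09-fold above DMSO, where it was not above background. For BMDM the values were 6.14 and 6.29 with KLA, well above background in 1 of 2 channels, at least 1.17-fold above DMSO, where no channel was (adjusted p = 0.000213), a call that was not past the threshold with array means as samples (adjusted p = 0.105).

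Across the 12 group means, the brighter probes of Ms4a4b, Ms4a4c and Ms4a4d ran nearly in parallel. Pearson's r was 0.999 between A_51_P136288 of Ms4a4b and A_51_P294505 of Ms4a4d, and 0.995 between A_51_P136288 and A_52_P393488 of Ms4a4c. The 2 probes of Ms4a4d itself correlated at 0.622. These points share arrays, slides and normalization, and the correlations are descriptions without a test. The genes are close relatives, the probe sequences are not in the files used here, and whether a probe also binds the RNA of a relative was not tested. Of 20871 genes compared by their brightest probe, the 3 with the pattern most like Ms4a4c were Ms4a4b (r = 0.995), Ms4a4d (0.989) and 5830484A20Rik (0.972).

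Ms4a6b, Ms4a6c and Ms4a6d were well above background in unstimulated macrophages and rose less. Ms4a6b (A_51_P422300, NM_027209, chr19:11596938-11596997) read 10.48 and 10.28 in EPM with DMSO and 14.07 and 13.63 with KLA at 12 h, a difference of 3.47, or 11.1-fold. In BMDM it read 13.79 and 13.53 with DMSO and 15.38 and 15.23 with KLA at 12 h, a rise of 1.64 (standard error 0.14, adjusted p = 1.01e-08), or 3.12-fold. Groups did not overlap at 12 h. The BMDM DMSO group at 1 h rests on 1 channel for this probe (13.68), since the other spot was an outlier and was left out.

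Ms4a6c (A_51_P193146, NM_028595, chr19:11538135-11538194) read 11.39 and 11.24 in EPM with DMSO and 14.26 and 14.03 with KLA at 12 h, a difference of 2.83, or 7.13-fold. BMDM channels read 12.72 and 12.59 with DMSO and 14.36 and 14.32 with KLA, a rise of 1.69 (standard error 0.10, adjusted p = 2.95e-11), or 3.22-fold. As with Ms4a6b, EPM started lower than BMDM. After 12 h of KLA, Ms4a6c lay at 14.15 in EPM and 14.34 in BMDM. Ms4a6b remained lower in EPM, at 13.85 against 15.3.

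Ms4a6d had 2 probes with like results. Probe A_52_P635388 (AB026047, the Ms4a11 mRNA, chr19:11657087-11657146, - strand) read 12.86 and 12.89 in EPM with DMSO and 15.20 and 15.26 with KLA at 12 h, a difference of 2.35. The BMDM channels were at 13.15 and 13.20 with DMSO and 15.04 and 15.01 with KLA at 12 h, a rise of 1.85 (standard error 0.06, adjusted p = 5.55e-15). Probe A_51_P149714 (NM_026835, chr19:11653981-11654040) gave 2.17 in EPM and 1.71 in BMDM (adjusted p = 2e-08). The probes correlated at 0.999 across the 12 groups, so that the sequence listed as Ms4a11 and that listed as Ms4a6d gave the same pattern.

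Ms4a7 differed from the genes above. Probe A_51_P277216 (NM_001025610, chr19:11388581-11389356, - strand) read 13.24 and 13.48 in EPM with DMSO and 14.60 and 14.44 with KLA at 12 h, a difference of 1.16. For BMDM the values were 15.72 and 15.83 with DMSO and 15.36 and 15.79 with KLA at 12 h, and the difference of -0.20 did not pass the test (standard error 0.11, adjusted p = 0.114). Probe A_52_P59124 (chr19:11388559-11388618) gave 1.06 in EPM and 0.15 in BMDM (adjusted p = 0.118). The mapped spans of the probes overlap, so they are not independent measurements of the gene.

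Ms4a8a (A_51_P501453, NM_022430, chr19:11134686-11134745, - strand) was mainly a gene of EPM. It read 11.01 and 10.93 in untreated EPM, 10.85 and 10.78 after 1 h of KLA, 10.67 and 10.44 with DMSO at 12 h and 11.01 and 10.81 with KLA at 12 h, a difference of 0.36 at 12 h. In BMDM the 8 channels lay between 5.94 and 6.32, and 3 of them were well above background. The rise of 0.28 in BMDM at 12 h (adjusted p = 0.0058) went from no channel well above background to 1 of 2, at least 1.16-fold. It was not past the threshold with array means as samples (adjusted p = 0.754).

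**Figure D2:**
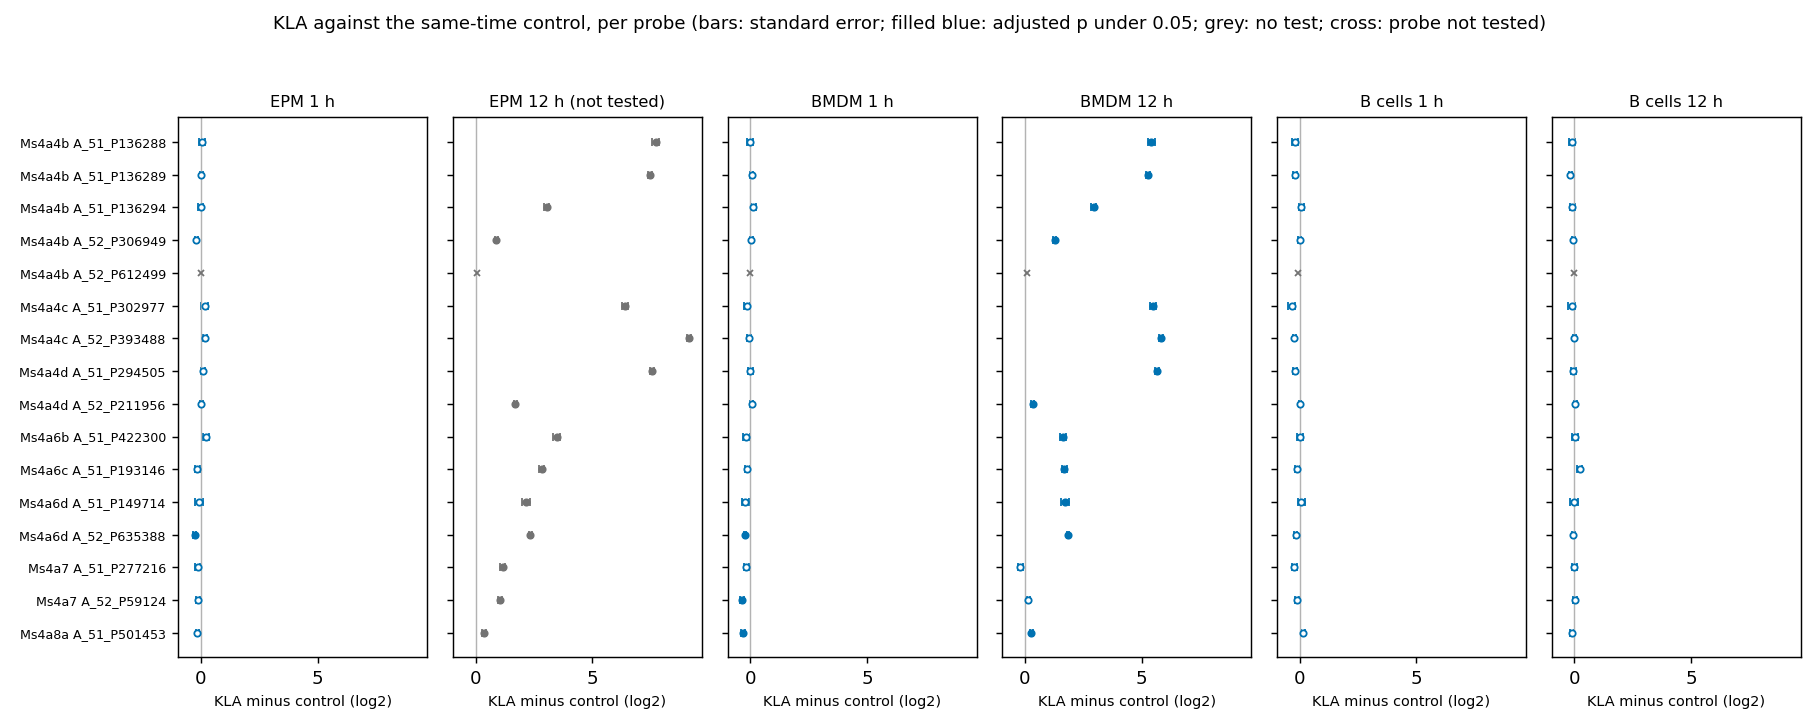
Difference between KLA and its control (x axis, log2) for each of the 16 probes (y axis) in the 3 cell types at 1 h and 12 h. The control was DMSO of the same time, except for EPM and B cells at 1 h, where it was untreated cells. Bars are standard errors and are mostly narrower than the symbols. Filled blue symbols passed the test, open ones did not, grey ones were not tested, and a cross marks the probe never above background. Changes lie near 0 at 1 h and in B cells, and reach 9.13 in EPM and 5.83 in BMDM at 12 h.

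In BMDM at 12 h, 13 of the 15 tested probes passed the test, all of them higher. In that comparison 60.6% of all tested probes passed in either direction and 27.9% were higher. By size, 11 of the 15 rose more than 2-fold where 12.5% of all tested probes differed more than 2-fold in either direction. The median of the 15 probes was 1.71 on the log2 scale, against -0.02 over all tested probes. In EPM at 12 h, described without a test, 13 of 15 were more than 2-fold higher and none lower, where 7.69% of all tested probes exceeded 2-fold. The 2 probes within 2-fold there were A_52_P306949 of Ms4a4b and the Ms4a8a probe. With array means as samples, the KLA group is 1 array, set against the DMSO arrays of 1 h and 12 h together, and the spread comes only from such pairs of controls, which differ in time. In that fit 11 of 15 passed in BMDM at 12 h, against 18.5% of all. The 4 that did not were both Ms4a7 probes, the Ms4a8a probe and A_52_P211956 of Ms4a4d.

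**Figure D3:**
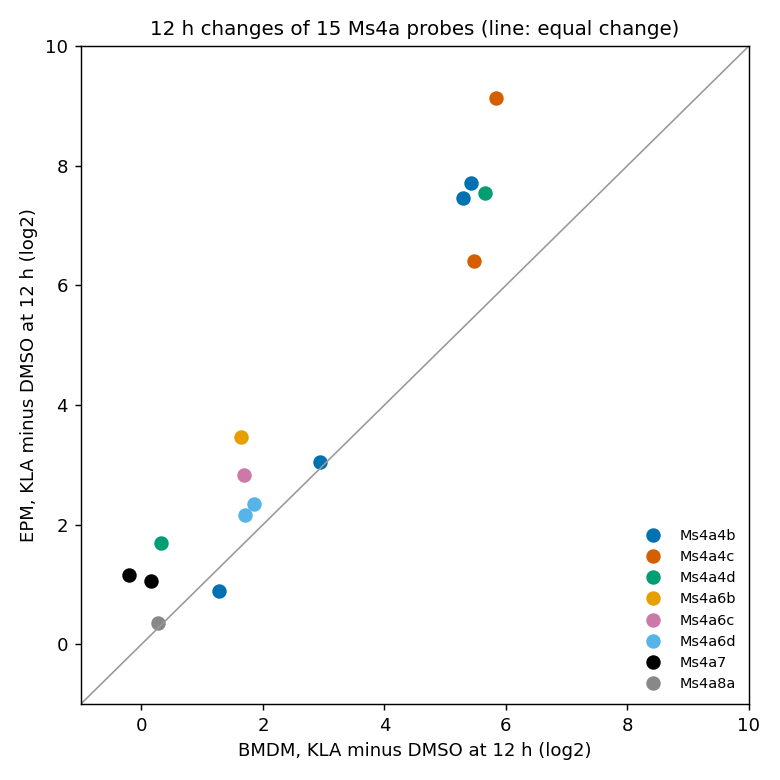
Difference between KLA and DMSO at 12 h (log2) in BMDM (x axis) and EPM (y axis) for the 15 tested probes, coloured by gene, with the line of equal change. The Ms4a4b, Ms4a4c and Ms4a4d probes over 5 in BMDM lie between 6.40 and 9.13 in EPM, and A_52_P306949 of Ms4a4b is the probe below the line.

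At 1 h the family moved little. In EPM, 1 of 15 tested probes passed the test, where 27% of all tested probes did. This was A_52_P635388 of Ms4a6d, which fell by 0.26 on the log2 scale (adjusted p = 0.00349), from 13.13 and 13.22 to 12.92 and 12.92. With the replicate block for the dye, 3 probes passed, against 36.9% of all. In BMDM, 3 of 15 passed, against 26.3% of all. A_52_P635388 of Ms4a6d fell by 0.22 (adjusted p = 0.0118), A_52_P59124 of Ms4a7 fell by 0.35 (adjusted p = 0.00369), and Ms4a8a fell at least 1.16-fold (adjusted p = 0.00777), to levels not above background. None of these 1 h calls remained with array means as samples or with the authors' values. Without the Cy5 channel of KLA at 1 h no probe passed in BMDM, and without the Cy3 channel of untreated cells none passed in EPM, where 2 passed without the Cy5 channel of KLA at 1 h.

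The 1 h response was measured from untreated cells in EPM and from DMSO in BMDM. The response of EPM minus that of BMDM passed the test for none of the 15 probes by limma, where 9.58% of all tested probes passed. Of the 15, 1 had an unadjusted p under 0.05. With the replicate block 1 passed, against 16.4% of all, and from the processed signal 3 did, against 10.2%. In BMDM the response at 12 h exceeded that at 1 h for 14 of 15 probes (50.1% of all tested probes passed), from 0.26 for A_52_P211956 of Ms4a4d (adjusted p = 0.0215) to 5.87 for A_52_P393488 of Ms4a4c (adjusted p = 3.67e-17). The exception was A_51_P277216 of Ms4a7, at -0.03. The other probe of Ms4a7 gave 0.50 (adjusted p = 0.00137), which joins its fall at 1 h and its value at 12 h.

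The controls moved with time as well. From DMSO at 1 h to DMSO at 12 h in BMDM, 6 of 15 probes passed the test, all lower, where 20.5% of all tested probes passed. The fall was largest for A_52_P393488 of Ms4a4c, by 1.22 (adjusted p = 4.39e-09), and the brighter probes of Ms4a4b and Ms4a4d fell by 0.88 and 1.07. With the replicate block 10 probes passed, against 30.2% of all. In EPM the same probes read lower in DMSO at 12 h than in untreated cells, at 6.65 against 7.98 for A_52_P393488 of Ms4a4c, but there the vehicle and the time differ together. The 12 h rises are measured from these lower controls.

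Unstimulated levels differed between cell types for all 15 tested probes. Untreated EPM were compared with BMDM in DMSO for 1 h, where 53.3% of all tested probes passed. Of the family, 13 probes were lower in EPM, and 10 of these by more than 2-fold. The log2 difference was -3.52 for A_52_P393488 of Ms4a4c (adjusted p = 5.11e-17), -2.76 for Ms4a6b and -2.33 for A_51_P277216 of Ms4a7. Ms4a8a went the other way, 25.2-fold higher in EPM (adjusted p = 7.74e-19), with 10.97 ± 0.06 (SD, n = 2) against 6.31 ± 0.01 (SD, n = 2). The other probe higher in EPM, A_52_P211956 of Ms4a4d, was not above background in either group. With array means as samples 10 of 15 passed, against 17.2% of all. Leaving out any 1 channel of the groups left 12.

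Against BMDM, B cells were higher for some members and lower for others. Untreated B cells differed from BMDM in DMSO at 1 h for 15 of 15 probes, where 76.3% of all tested probes passed, 8 being higher and 7 lower. The higher probes were those of Ms4a4b, Ms4a4c and Ms4a4d and included A_52_P393488 of Ms4a4c, at 13.20 and 13.19 against 11.57 and 11.42 (1.70 higher, adjusted p = 5.25e-13). The lower ones were those of Ms4a6b, Ms4a6c, Ms4a6d, Ms4a7 and Ms4a8a. Ms4a6b differed by -2.29 but was well above background in B cells, at 11.33 and 11.44, where untreated EPM read 10.93 and 10.91. Ms4a8a was near background in both, at least 1.16-fold lower in B cells. Its difference was not past the threshold with array means as samples. Ms4a6c differed by -5.21, at 7.68 and 7.56. Ms4a6d was not above background in any B cell channel with either probe, and was at least 98.1-fold (A_51_P149714) and at least 144-fold (A_52_P635388) lower than in BMDM. Ms4a7 was at least 518-fold lower with A_52_P59124. With array means as samples 13 of 15 passed, against 52.6% of all, in a fit whose B cell controls include the array labelled DMSO 12 h.

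With the B cell labels as given, no member probe passed the test for KLA. At 1 h, 0 of 15 passed the test by limma, where 5.51% of all tested probes did, and 5 had an unadjusted p under 0.05. At 12 h, 0 of 15 passed, where 5.58% did, and 1 had an unadjusted p under 0.05. With the replicate block 1 probe passed at each time, against 13.3% of all at 1 h and 10.9% at 12 h. Probe A_52_P393488 of Ms4a4c read 13.20 and 13.19 in untreated B cells, 12.99 and 12.96 in those labelled KLA 1 h, 13.97 and 14.10 in those labelled DMSO 12 h, and 14.15 and 13.93 with KLA at 12 h. The channels labelled DMSO 12 h thus lay with KLA 12 h, and those labelled KLA 1 h near the untreated ones.

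With the labels of these 2 conditions exchanged, 9 of 15 probes passed at 1 h (45.5% of all tested probes), 8 of them higher, and 10 of 15 at 12 h (48% of all), 8 of them higher. Ms4a4c was then higher with KLA at 1 h by 0.84 (A_52_P393488, adjusted p = 1.11e-07), and the 12 h difference was 1.06 (adjusted p = 5.45e-09). A_51_P294505 of Ms4a4d was higher by 0.79 and 0.97, and A_51_P277216 of Ms4a7, close to background, by 0.64 and 0.86. Ms4a6b, which rose in both macrophage types, passed at neither time in B cells (-0.31 and -0.29). Summed marker levels also differed between these channels. The summed linear intensity of the 7 macrophage markers was 2340 to 3000 in untreated B cells and those labelled KLA 1 h, and 5660 to 6470 in those labelled DMSO 12 h and KLA 12 h, against at least 371000 in macrophages. That of the 8 T cell markers was 1540 to 1880 and 3060 to 3580, with 3 of them (Cd3e, Cd4 and Lck) well above background in all 8 B cell channels and 1 (Thy1) in none. Lck, with a B cell mean of 10.74 on the log2 scale, made up most of this sum. Cd3e and Cd4 had means of 7.1 and 6.67, and the other T cell markers lay between 6.09 and 6.33. The NK cell list grouped the channels otherwise, at 622 to 666 in those labelled KLA 1 h and 378 to 425 in the others. The part of other cells in the Ms4a values was not tested. In bulk samples, fewer cells of a type and less RNA per cell cannot be told apart.

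**Figure D4:**
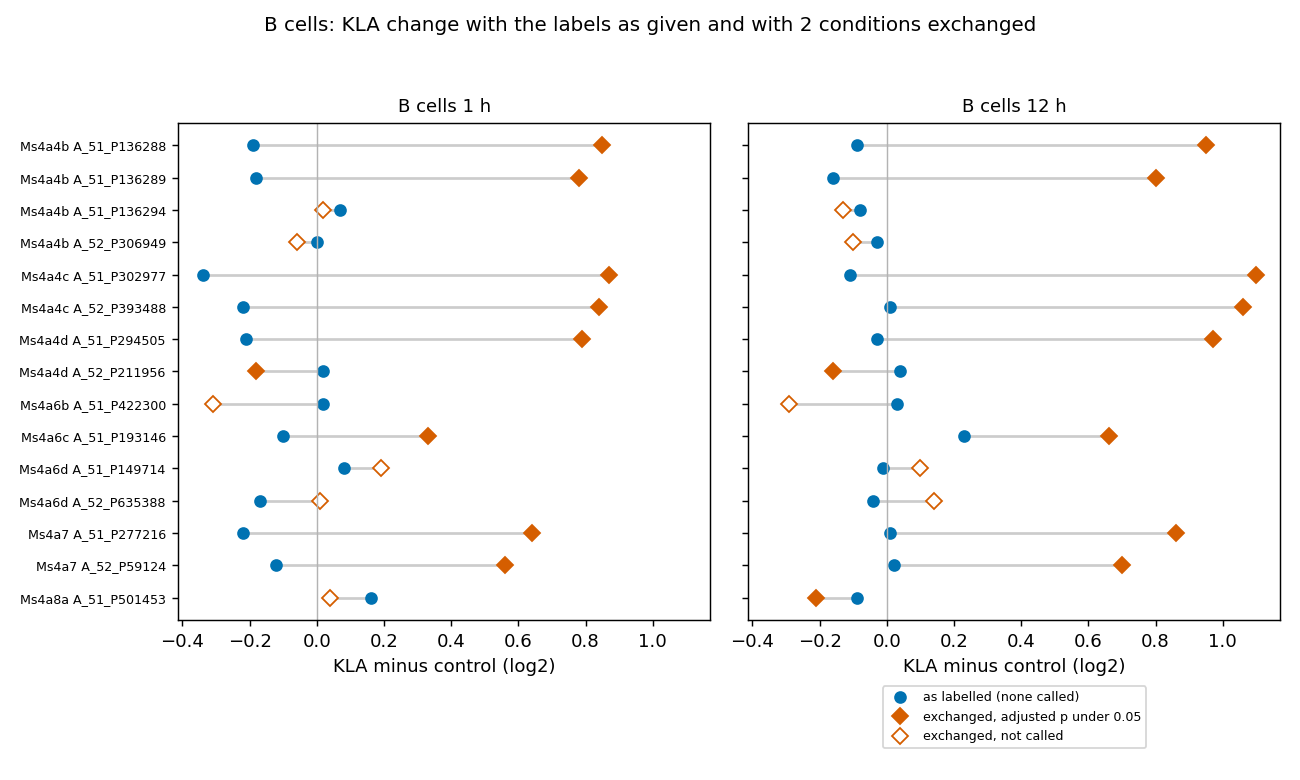
Difference between KLA and control in B cells (x axis, log2) for the 15 tested probes (y axis) at 1 h and 12 h, with the scanner labels (circles) and with the conditions KLA 1 h and DMSO 12 h exchanged (diamonds, filled where the test was passed). With the labels as given the values lie between -0.34 and 0.23, and with the exchange the probes of Ms4a4c lie between 0.84 and 1.10.

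The 12 h response of BMDM exceeded that of B cells for 13 of 15 probes, where 53.9% of all tested probes passed. The difference was 5.82 for A_52_P393488 of Ms4a4c (standard error 0.12, adjusted p = 1.87e-17) and 1.61 for Ms4a6b (adjusted p = 1.8e-06). With the B cell labels exchanged these were 4.76 and 1.94, and the Ms4a7 probes then passed in the other direction, at -1.06 and -0.55. With array means as samples 8 of 15 passed, against 7.18% of all, and A_52_P393488 did not (4.79, adjusted p = 0.0654).

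Markers of other cell types were also read in macrophages. The summed linear intensity of the 8 T cell markers was 976 to 1240 in EPM and 899 to 1170 in BMDM. At 12 h it was 1190 to 1240 with KLA and 1190 to 1220 with DMSO in EPM, and 899 to 954 with KLA and 1030 to 1070 with DMSO in BMDM. Of the 8 T cell markers, 4 (Cd3e, Cd4, Lck and Thy1) were well above background in all EPM channels, and in BMDM 2 (Cd3e and Cd4) were in all channels and 3 (Cd3d, Cd8a and Thy1) in none. The NK cell markers summed to 327 in EPM with DMSO at 12 h and to between 877 and 1000 with KLA, and in BMDM to between 327 and 340 and between 976 and 1000, so that both KLA groups lay above their controls. Of the 5 NK cell markers, Ncr1 and Gzma were not above background in any macrophage channel, whereas Klrk1 was in 6 EPM and 7 BMDM channels and Klrb1c in 4 and 5. The B cell markers summed to 540 to 643 in EPM, and in BMDM to 3540 to 3740 with DMSO and 1530 to 1550 with KLA at 12 h, with Cd79b at a mean of 11.17. The dendritic cell markers summed in EPM to between 12500 and 13900 with DMSO and to 4480 with KLA at 12 h. Most of this sum was Itgax, with an EPM mean of 12.99 on the log2 scale. Flt3, Xcr1 and Siglech had EPM means of 6.57, 7.38 and 5.91. Neutrophil markers summed to 420 to 488 in EPM and 1420 to 2390 in BMDM. All 5 of them were well above background in all 8 BMDM channels, and 1 (Mpo) in all 8 EPM channels. The mast cell markers summed to 358 to 385 in EPM and 374 to 431 in BMDM. Of these 5, 2 (Mcpt4 and Fcer1a) were well above background in all channels of both. The part of other cell types in the Ms4a values was not tested.

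The remaining Ms4a genes and a list of interferon-stimulated genes were read on the same arrays. Of the other Ms4a genes, 7 had 8 probes on the array, of which 5 were tested. In BMDM at 12 h, 2 of these 5 passed by limma, where 60.6% of all tested probes did. They were Ms4a10 (0.34, adjusted p = 0.000447) and A_51_P277683 of Ms4a1 (0.16, adjusted p = 0.0329). The other Ms4a1 probe, A_52_P483336, gave 0 there (adjusted p = 0.999). At 1 h, 1 of 5 passed in BMDM, A_52_P483336 at -0.6 (adjusted p = 0.00011), against 26.3% of all. In B cells as labelled, 1 of 5 passed at 1 h, A_51_P277683 at -0.23 (adjusted p = 0.0407), against 5.51% of all. None of the 5 differed more than 2-fold in any comparison of KLA with its control. Of the interferon-stimulated genes listed, 19 had 30 probes, all tested. All 30 were higher in BMDM at 12 h with a median of 4.82, where 27.9% of all tested probes were higher. At 1 h, 20 of the 30 were higher and 1 lower in BMDM, with a median of 0.84, where the family had a median of -0.12. Of all 30719 tested probes there, 3144 were higher and 4942 lower. In EPM, 15 were higher and 1 lower at 1 h, where 3125 of all 30723 tested probes were higher and 5175 lower. At 12 h all 30 were more than 2-fold higher in EPM with a median of 6.38, given as a description. Of all tested probes, 7.69% exceeded 2-fold there in either direction.

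For Ms4a6b, Ms4a6c, Ms4a6d and Ms4a7, the genes with the most similar pattern over the 12 group means lay outside the family. Such genes were not sought for Ms4a4b, Ms4a4d and Ms4a8a. For Ms4a6b they were Irak3 (r = 0.985), Fpr-rs2 (0.968) and Ftmt (0.966), and for Ms4a6c they were Slc31a2 (0.998), Oas1a (0.997) and Oas1f (0.995). For A_52_P635388 of Ms4a6d they were Fcgr1 (0.999), Acp2 (0.998) and Msr1 (0.997). For A_51_P277216 of Ms4a7 they were TC1658525, Clec4a3 and Fyb, all at 0.997. For Ms4a6c, Ms4a6d and Ms4a7 all 4 B cell groups lay far below the macrophage groups. The values are descriptions over groups that share slides.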

How the data were processed

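RNA of 12 groups with 2 replicates each was hybridised to Agilent arrays with 2 colours (12 arrays), replicate 1 in Cy5 and replicate 2 in Cy3 of the same array. The deposited scanner files hold spot intensity values, which the authors extracted with Agilent Feature Extraction 9.5.3.1. The table of normalized intensities that the authors deposited was taken to the log2 scale and used as an alternative. Mean and background intensities were corrected with normexp (offset 50), normalized by loess within arrays and by Aquantile between them, and split into log2 channels with limma 3.58.1 in R 4.3.3 and data.table (version 1.17.8). Control spots, and single spots marked as outliers (201 values among tested probes), were left out, and spots of a probe were averaged.

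A probe was tested if both channels of any group were well above background (30727 probes), with 1 coefficient per group, 12 residual degrees of freedom and Benjamini-Hochberg adjustment over all of them at 0.05. Samples were grouped by the submitters' labels. p-values measure the spread between channels that share an array. The number of arrays limits the precision. Array means as samples, with the 1 h and 12 h controls of a cell type taken as its controls, were an alternative, in which a KLA group is 1 array assumed to vary like the controls. The dye pairs the channels, since same-dye deviations correlated in all 66 pairs of arrays (0.23 to 0.59), and the replicate block for the dye was an alternative. Other alternatives were an offset of 16, the processed signal, other normalizations and filters, a threshold of 0.01, 1 probe per gene and leaving out each channel.

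All probes of the listed genes were named, and the 3 most similar genes were those of highest Pearson's r over group means. Members and gene lists were chosen with earlier results of these data known. The fit was tested on simulated data with independent channels, which cannot show the effect of channels that share an array or a dye. Promoters came from RefSeq and were read with Python 3.11.15 and Biopython 1.88.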

Additional observations from a re-analysis of the deposited data

Results flagged for a closer look

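The 12 h response to KLA differed between BMDM and B cells, by the test of the difference itself, for 13 of 15 tested probes of the family, where 53.9% of all tested probes passed. With array means as samples 8 of 15 passed, and A_52_P393488 of Ms4a4c did not (adjusted p = 0.0654). On the log2 scale the response was higher in BMDM by 5.51, 5.45, 3.02 and 1.30 for the Ms4a4b probes A_51_P136288, A_51_P136289, A_51_P136294 and A_52_P306949. For the Ms4a4c probes A_51_P302977 and A_52_P393488 it was higher by 5.59 and 5.82, and for the Ms4a4d probes A_51_P294505 and A_52_P211956 by 5.69 and 0.29. It was higher by 1.61 for Ms4a6b, 1.45 for Ms4a6c, 1.72 and 1.89 for the Ms4a6d probes A_51_P149714 and A_52_P635388, and 0.37 for Ms4a8a. Cell type and slide cannot be told apart, and the B cell values depend on which labels are right.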

How the results depend on the processing

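Counts of member probes past the threshold were as follows. In EPM at 1 h the count was 1, and it was 2 with an offset of 16, with the processed signal and without normalization between arrays, 0 with the authors' values, with probes detected in all channels and with array means, and 3 with the replicate block, with 0 to 2 when 1 channel was left out. In BMDM at 1 h it was 3, and it was 1 with an offset of 16, the processed signal or no normalization between arrays, and 0 with the authors' values, detection in all channels or array means, with 0 to 3 when 1 channel was left out. In BMDM at 12 h the 13 became 7 with detection in all channels and 7 with 1 probe per gene (12 to 14 without 1 channel). In B cells at 1 h the 0 became 2 with an offset of 16, 2 without normalization between arrays, 9 with the authors' values, 1 with the replicate block and 9 with labels exchanged. At 12 h it became 1 with the processed signal, 8 with the authors' values, 1 with the replicate block and 10 with labels exchanged, and leaving out 1 channel gave 0 at both times. The authors' values for B cells labelled KLA 1 h and DMSO 12 h match the opposite conditions, as stated above. Their counts are therefore not separate from those with labels exchanged. The 1 h difference between EPM and BMDM went from 0 to 3 with the processed signal and 1 with the replicate block (0 without any 1 channel). BMDM minus B cells at 12 h went from 13 to 7 with detection in all channels, 8 with array means and 7 with 1 probe per gene (13 without any 1 channel). The 12 h minus 1 h response went from 14 to 7 and 7 under the same pair of settings (13 to 14), unstimulated EPM minus BMDM from 15 to 7 and 8 (12 without any 1 channel), and unstimulated B cells minus BMDM from 15 to 7 and 8 (13 to 15). Detection in all channels and 1 probe per gene test fewer probes by construction. The DMSO difference went from 6 to 10 with the replicate block (5 to 6). The block moved no count by over 1.5 times other than those given here for it. For the remaining changes the cause was not tested.

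The EPM change of Ms4a4c at 12 h was 6.40 with A_51_P302977 (6.31 to 6.49 without 1 channel), and 7.25 with an offset of 16, 8.91 with the processed signal, 6.78 without normalization between arrays and 7.15 with the authors' values. With A_52_P393488 it was 9.13 (9.02 to 9.23), and 9.73, 10.66, 9.39 and 9.57 in the same order, and 8.46 with array means. Signs turned for results that had not passed. With the authors' values Ms4a7 (A_51_P277216) was 0.35 in BMDM at 12 h. In B cells at 1 h these values gave 0.79 and 0.75 for Ms4a4b, 0.46 for Ms4a6c, 0.79 and 0.63 for Ms4a7, 0.74 for Ms4a4d, 0.88 and 0.80 for Ms4a4c and -0.38 for Ms4a6b. With labels exchanged they were 0.85 and 0.78 for Ms4a4b, 0.33 for Ms4a6c, 0.64 and 0.56 for Ms4a7, 0.79 and -0.18 for Ms4a4d, and 0.87 and 0.84 for Ms4a4c. At 12 h the authors' values gave 0.86 and 0.72 for Ms4a4b, 0.87 for Ms4a4d and 1.09 for Ms4a4c, and exchanged labels 0.95 and 0.80 for Ms4a4b, 0.97 and -0.16 for Ms4a4d and 1.10 for Ms4a4c. BMDM minus B cells at 12 h was -0.55 for A_52_P59124 of Ms4a7 with labels exchanged. Array means could not be fitted for the comparisons of times within BMDM. Signal near background limits Ms4a8a in BMDM and A_52_P211956 of Ms4a4d.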
